A study of Mus musculus with 8 samples.

Results

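The genes described here are 6 genes of lymphatic endothelium (Mmrn1, Flt4, Reln, Lyve1, Prox1 and Sema3d), the VEGF ligands Vegfc and Vegfa, and the blood-vessel VEGF receptors Kdr and Flt1. They were taken by name, 10 genes of the 54091 in the deposited expression table, and they had been picked because the lymphatic genes were higher in muscle lacking Acot2 while the blood-vessel receptors were not. Their differences between the groups are therefore a description: no p-value is given for any of them, and counts of them past a threshold are support for nothing. The RNA came from white quadriceps, a mostly fast-fibre thigh muscle, of 8 male mice aged 11 to 14 weeks on chow, with muscle taken in the morning. In 4 mice, here called Acot2 mKO, a Cre recombinase under the muscle creatine kinase promoter (CKM Cre) removed Acot2, a mitochondrial acyl-CoA thioesterase, from muscle. The other 4, the controls, are labelled Loxp/Loxp with no Cre named, so Cre itself and the loss of Acot2 cannot be told apart. This Cre acts in muscle fibres, whereas the lymphatic genes are known from endothelial cells, and in bulk tissue more cells of a type and more RNA per cell cannot be told apart.

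Lymphatic vessels are lined by an endothelium that is set up and kept by the transcription factor Prox1 and that grows when VEGF-C or VEGF-D binds the receptor tyrosine kinase Flt4 (VEGFR-3). Blood-vessel endothelium responds mainly to VEGF-A, which signals through Kdr (VEGFR-2) and is bound and held back by Flt1 (VEGFR-1). In skeletal muscle the lymphatics are few and follow the larger vessels, whereas capillaries line every fibre, and muscle fibres themselves make much of the VEGF-A.

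Read totals over genes ran from 30415428 to 48834289 a library. A normalized read is a read divided by the library's scaling factor, and 1 read was worth 0.708 to 1.22 normalized reads. Acot2 had 42.8 to 53.7 normalized reads in Acot2 mKO muscle, against 149 to 251 in control muscle, so the libraries match their labels. Of 13638 genes with enough reads to test, 2 passed limma's test at a Benjamini-Hochberg adjusted p under 0.05, a share of 0.0147% (1 in each direction, 0.00733%), and neither was among the 10 genes. Control replicates 2 and 3 were rich in adipocyte genes and Acot2 mKO replicates 3 and 4 in slow-fibre genes, which is given beside the results they touch. The fast-fibre gene Myh2 was highest in replicates 3 and 4 of each group. It had 50678 and 51585 normalized reads there in Acot2 mKO and 73690 and 50366 in control muscle. Replicates 1 and 2 had 4409 and 6512 in Acot2 mKO and 7832 and 797 in control muscle. Leaving out Acot2 mKO replicates 3 and 4 alone thus leaves the groups unlike in Myh2.

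The promoters of Mmrn1, Flt4 and Kdr are shown because they belong to the lymphatic gene with the largest log2 difference of the 10, to the lymphatic receptor and to the blood-vessel receptor it is set against. Each runs from 250 bases before to 50 bases after the RefSeq gene start (GRCm38.p6), 5′ to 3′ on the gene's strand. Capitals mark AGGAA, the core of many ETS sites, and ACAAT, the core of many SOX sites, on either strand. The Mmrn1 window is chr6:60944067-60944366 on the plus strand, the Flt4 window chr11:49609429-49609728 on the plus strand, and the Kdr window chr5:75978406-75978705 on the minus strand. The RefSeq start lies 19341 bases inside the Mmrn1 gene and 416 bases inside the Flt4 gene as GENCODE M21 draws them. For Kdr it lies 3 bases inside. The Mmrn1 and Flt4 windows therefore do not hold the GENCODE start, and which start is used in muscle was not tested.
Mmrn1: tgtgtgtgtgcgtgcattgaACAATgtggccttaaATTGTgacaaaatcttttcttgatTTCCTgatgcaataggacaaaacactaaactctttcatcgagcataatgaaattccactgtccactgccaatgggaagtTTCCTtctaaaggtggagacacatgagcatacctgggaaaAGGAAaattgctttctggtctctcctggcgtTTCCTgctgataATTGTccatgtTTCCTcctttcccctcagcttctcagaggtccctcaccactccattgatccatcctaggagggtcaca
Flt4: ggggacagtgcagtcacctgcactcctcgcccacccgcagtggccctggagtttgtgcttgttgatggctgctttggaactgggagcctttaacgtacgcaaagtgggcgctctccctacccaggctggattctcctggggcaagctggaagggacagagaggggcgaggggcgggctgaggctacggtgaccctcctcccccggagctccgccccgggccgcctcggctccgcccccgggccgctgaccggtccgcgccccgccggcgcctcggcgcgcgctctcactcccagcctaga
Kdr: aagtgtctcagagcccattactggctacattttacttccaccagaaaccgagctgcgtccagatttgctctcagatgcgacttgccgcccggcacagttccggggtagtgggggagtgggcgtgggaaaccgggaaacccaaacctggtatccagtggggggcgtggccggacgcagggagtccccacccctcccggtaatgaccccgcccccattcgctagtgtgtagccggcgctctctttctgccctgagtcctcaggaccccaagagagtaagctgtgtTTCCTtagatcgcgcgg
The Mmrn1 window was 44.3% G or C with 3 CpG dinucleotides, and it held 5 matches to AGGAA and 3 to ACAAT. At least 5 matches to AGGAA occurred in 1.37% of all 32851 promoter windows of this length, and at least 3 to ACAAT in 1.87%. The Flt4 window was 70.3% G or C with 26 CpG dinucleotides, and it held neither core but 3 matches to GGGCGG (the GC box), and at least 3 of these occurred in 10.7% of windows. The Kdr window was 60.7% G or C with 19 CpG dinucleotides, 1 AGGAA, no ACAAT and 2 matches to GGGCGG. Over all windows, 66.7% held AGGAA, 31% held ACAAT and 35.7% held GGGCGG, and the median window was 52.7% G or C with 7 CpG dinucleotides. The windows of Flt4 and Mmrn1 were thus unlike in base composition. RefSeq entries were found for 9 of the 10 genes, all but Lyve1.

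Mmrn1 encodes multimerin 1, a large secreted glycoprotein of platelets and endothelium that marks lymphatic endothelium (chromosome 6, 60924976 to 60989378, plus strand, GRCm38). Its levels were 231, 142, 215 and 196 normalized reads in replicates 1 to 4 of the Acot2 mKO group, against 104, 113, 117 and 80.1 in control replicates 1 to 4. Every Acot2 mKO library lay above every control library, with replicate 2 nearest to the controls. The means were 196 ± 38.7 in Acot2 mKO muscle and 103 ± 16.4 in control muscle (SD, n = 4 each), a log2 difference of 0.91 (limma SE 0.18). Among the 13638 genes it stood 56th from the highest. Mmrn1 lies 27.56 Mb from Kbtbd12 on the same chromosome. Kbtbd12 is the gene that passed the test with a higher level in Acot2 mKO muscle (log2 difference 1.57, SE 0.06). Whether their shared chromosome bears on either difference was not tested.

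Flt4 encodes VEGFR-3, the receptor for VEGF-C and VEGF-D (chromosome 11, 49609263 to 49652739, plus strand). It had 245, 229, 204 and 204 normalized reads in replicates 1 to 4 of the Acot2 mKO group, against 151, 127, 148 and 168 in the control replicates. The groups did not overlap, and the gap between the lowest Acot2 mKO library and the highest control library was wider than the SD within either group. The means were 220.5 ± 19.97 in Acot2 mKO muscle and 148 ± 16.9 in control muscle (SD, n = 4 each), a log2 difference of 0.57 (SE 0.12). Read counting alone would give SDs of 14.7 in Acot2 mKO and 12.4 in control libraries, which is close to the SDs found between mice. The 8 tested genes nearest to Flt4 had log2 differences between -0.30 and 0.18.

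Reln encodes reelin, a secreted glycoprotein known for guiding migrating neurons and also made by lymphatic endothelium, where it acts on the contractile cells around collecting vessels (chromosome 5, 21884454 to 22344702, minus strand). Its levels were 437, 396, 625 and 735 normalized reads in replicates 1 to 4 of the Acot2 mKO group, against 271, 279, 365 and 393 in the control replicates. The groups did not overlap, but Acot2 mKO replicate 2 (396) lay just above control replicate 4 (393). The means were 548 ± 159 in Acot2 mKO muscle and 327 ± 61.3 in control muscle (SD, n = 4 each), a log2 difference of 0.72 (SE 0.20). Its 2 highest libraries were those rich in slow-fibre genes, and without them the log2 difference was 0.37. Among the controls, too, Reln was highest in replicates 3 and 4, as was Myh2 in each group. The value of 0.37 therefore sets Acot2 mKO libraries low in Myh2 against controls that include those high in it. Reln shares 246 exonic bases with Gm10475 on the other strand, and no source used here says whether reads were counted by strand.

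Lyve1 encodes a hyaluronan receptor of lymphatic endothelium that tissue macrophages also carry (chromosome 7, 110850607 to 110863239, minus strand). It had 185, 147, 184 and 218 normalized reads in replicates 1 to 4 of the Acot2 mKO group, against 128, 92.9, 171 and 121 in the control replicates. The groups overlapped through Acot2 mKO replicate 2 and control replicate 3. The means were 183.5 ± 29.2 in Acot2 mKO muscle and 128 ± 32.3 in control muscle (SD, n = 4 each), a log2 difference of 0.53 (SE 0.19). Of 15 tested macrophage genes, 1 lay above 0 and 14 below, none passed the test, and their summed level ranged from 2363 to 4643 normalized reads in Acot2 mKO and from 3294 to 4120 in control libraries. Lyve1 as a share of Mrc1, the mannose receptor of tissue macrophages, was 28.5 ± 3.71% in Acot2 mKO and 17.65 ± 6.61% in control muscle (SD, n = 4 each), and the groups overlapped. None of the macrophage markers Mrc1, Cd163, Folr2, Adgre1 and Csf1r was at 0 in any library.

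Prox1 encodes the homeodomain factor that defines lymphatic identity and that is also present in muscle fibres and satellite cells (chromosome 1, 190118035 to 190170714, minus strand). It had 119, 114, 50.2 and 127.5 normalized reads in replicates 1 to 4 of the Acot2 mKO group, against 66.4, 82.8, 92.65 and 75.75 in the control replicates. In Acot2 mKO muscle 3 libraries lay above all controls and replicate 3 lay below all of them. The means were 102.5 ± 35.3 in Acot2 mKO muscle and 79.4 ± 11.1 in control muscle (SD, n = 4 each), and the log2 difference of 0.29 was about the size of its SE of 0.27. Without Acot2 mKO replicate 3 it was 0.60, and without replicate 4 it was 0.16. Prox1 shares 133 exonic bases with Prox1os, an antisense RNA, so reads of the pair may be mixed.

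Sema3d encodes a secreted class 3 semaphorin that guides axons and endothelial cells (chromosome 5, 12383385 to 12588948, plus strand). It had 76.6, 64.8, 87.9 and 84.3 normalized reads in replicates 1 to 4 of the Acot2 mKO group, against 58.3, 63.8, 50.6 and 41.1 in the control replicates. The groups were separate by 1 normalized read, between Acot2 mKO replicate 2 and control replicate 2. The means were 78.4 ± 10.2 in Acot2 mKO muscle and 53.5 ± 9.85 in control muscle (SD, n = 4 each), a log2 difference of 0.55 (SE 0.19). These levels rested on 38 to 119 reads a library, and counting alone would give SDs of 8.71 and 7.47 in Acot2 mKO and control libraries.

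**Figure D1:**
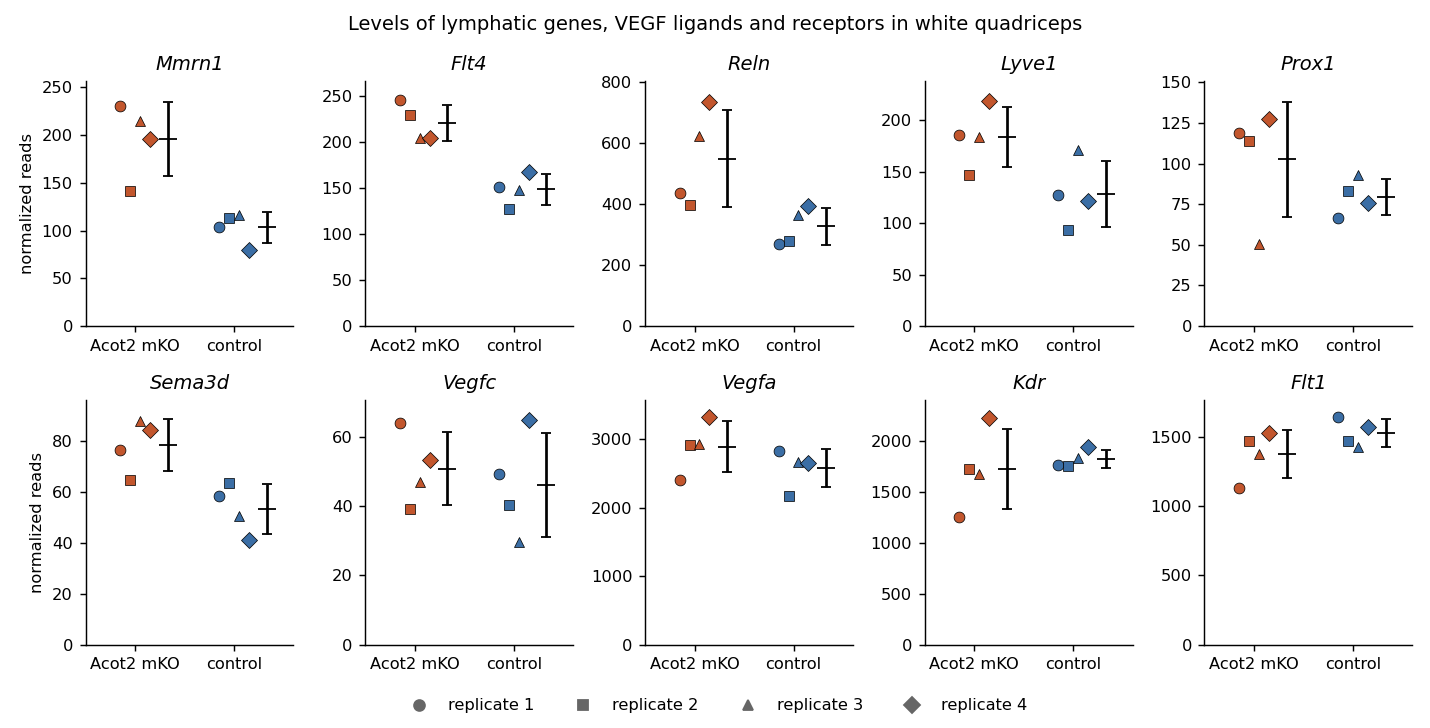
Normalized reads of the 10 genes (vertical axes, linear from 0) in 4 Acot2 mKO libraries (left, orange) and 4 control libraries (right, blue); symbols mark replicates, and the bar beside each group is the mean ± SD. Mmrn1, Flt4, Reln and Sema3d show no overlap between groups, Acot2 mKO replicate 3 is the low point of Prox1 at 50.2, and Kdr and Flt1 overlap.

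Of the 2 ligands, Vegfc encodes the activating ligand of Flt4 (chromosome 8, 54077606 to 54187096, plus strand). It had 64.0, 39.1, 46.8 and 53.1 normalized reads in replicates 1 to 4 of the Acot2 mKO group, against 49.3, 40.3, 29.6 and 64.9 in the control replicates. The groups covered nearly the same range, with means of 50.8 ± 10.5 in Acot2 mKO and 46.0 ± 14.95 in control muscle (SD, n = 4 each). The log2 difference of 0.17 (SE 0.26) fell below 0, to -0.02, without control replicate 3, and it was -0.18 without both adipocyte-rich controls. These levels rested on 31 to 76 reads a library, and the difference was smaller than its standard error.

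Vegfa, the chief angiogenic ligand (chromosome 17, 46016993 to 46032369, minus strand), had 2400, 2915, 2937 and 3321 normalized reads in replicates 1 to 4 of the Acot2 mKO group, against 2834, 2173, 2662 and 2648 in the control replicates. The groups overlapped: Acot2 mKO replicate 1 was lower than 3 of the 4 controls. The means were 2893 ± 378 in Acot2 mKO muscle and 2579 ± 284 in control muscle (SD, n = 4 each), a log2 difference of 0.16 (SE 0.10). It was 0.25 without Acot2 mKO replicate 1 and 0.08 without control replicate 2. It was 0.04 without Acot2 mKO replicates 3 and 4 and 0.07 without control replicates 2 and 3.

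Kdr, the main signalling receptor for VEGF-A (chromosome 5, 75932827 to 75978458, minus strand), had 1255, 1725, 1676 and 2218 normalized reads in replicates 1 to 4 of the Acot2 mKO group, against 1765, 1752, 1824 and 1939 in the control replicates. The Acot2 mKO libraries held both the lowest and the highest level of the 8. The means were 1719 ± 394 in Acot2 mKO and 1820 ± 85.5 in control muscle (SD, n = 4 each), a log2 difference of -0.11 (SE 0.14), which was 0.03 without Acot2 mKO replicate 1 and -0.24 without replicate 4. Without the slow-fibre-rich replicates 3 and 4 it was -0.31, and without the adipocyte-rich control replicates 2 and 3 it was -0.14.

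Flt1, whose product binds VEGF-A tightly and signals weakly (chromosome 5, 147561604 to 147726011, minus strand), had 1130, 1472, 1382 and 1529 normalized reads in replicates 1 to 4 of the Acot2 mKO group, against 1647, 1471, 1428 and 1575 in the control replicates. The groups overlapped. The means were 1378 ± 176 in Acot2 mKO and 1530 ± 99.6 in control muscle (SD, n = 4 each), a log2 difference of -0.16 (SE 0.09). It was -0.07 with Acot2 mKO replicate 1 left out, -0.24 with replicates 3 and 4 of that group left out, and -0.23 without control replicates 2 and 3. Acot2 mKO replicate 1 had the lowest level of both blood-vessel receptors and the highest of Mmrn1, Flt4 and Vegfc among the Acot2 mKO libraries.

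**Figure D2:**
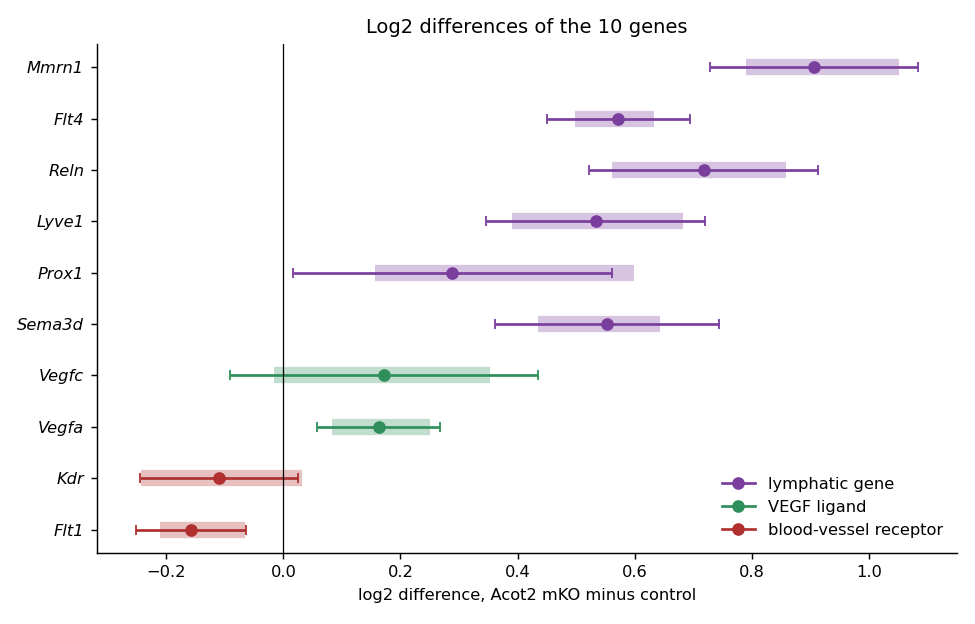
Log2 difference, Acot2 mKO minus control (horizontal axis), for each of the 10 genes (rows). Points are differences of group means, whiskers are limma standard errors and pale bars span the values when each library in turn was left out. The bars of the 6 lymphatic genes lie above 0, as they must for Mmrn1, Flt4, Reln and Sema3d, whose groups do not overlap. The bars of Vegfc (-0.02 to 0.35) and Kdr (-0.24 to 0.03) cross 0.

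No gene of the 10 passed the adjusted threshold in limma or in limma-voom. At an unadjusted p under 0.05, 5 of the 6 lymphatic genes (all but Prox1) were reached in limma, where 2.91% of all genes were, and the same number in limma-voom, where 2.65% were. Groups did not overlap, with Acot2 mKO higher, for 4 of the 10 genes and for 0.924% of all genes; with Acot2 mKO lower, it was none of the 10 and 0.997%. A log2 difference of at least 0.5 was found for 5 of the 10 and 2.6% of all genes, and one above 0 for 8 of the 10 and 51.7%. Because the genes were picked from this very contrast, nothing can be read from these shares. The median log2 difference was 0.56 for the 6 lymphatic genes, 0.17 for the 2 ligands and -0.13 for the 2 blood-vessel receptors, beside 0.0049 over all genes.

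**Figure D3:**
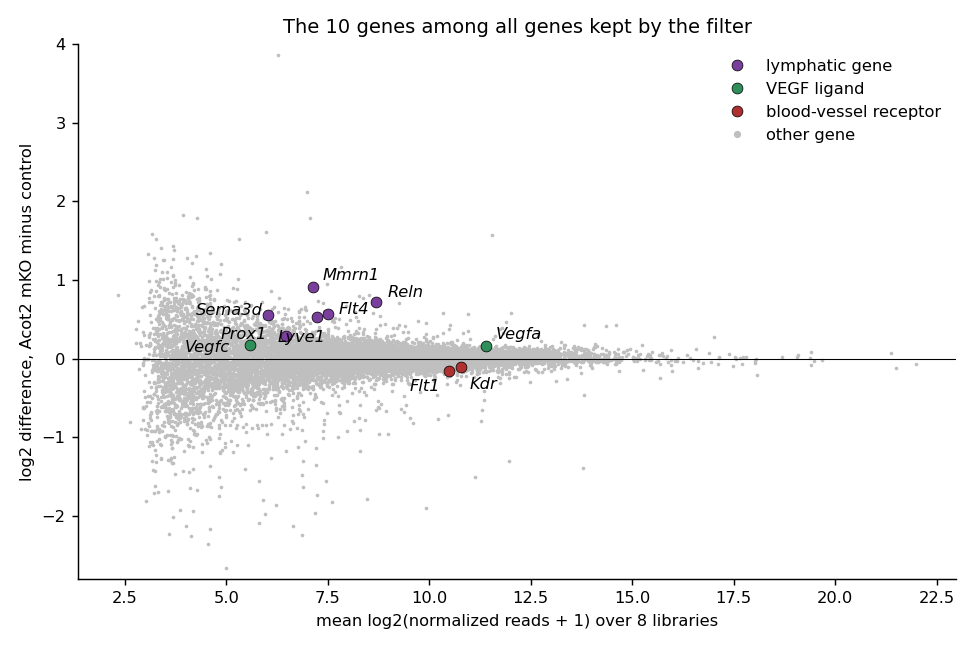
Log2 difference, Acot2 mKO minus control (vertical axis), against the mean of log2(normalized reads + 1) over 8 libraries (horizontal axis) for the 13638 genes kept. The lymphatic genes lie above 0 at low to middle levels, from 0.29 (Prox1) to 0.91 (Mmrn1), and Kdr and Flt1 lie just below 0 at higher levels.

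Per kilobase of exon sequence, Vegfa had the highest level, 675 ± 88.2 normalized reads in Acot2 mKO and 602 ± 66.2 in control muscle (SD, n = 4 each, as for all levels per kilobase). Kdr followed with 190 ± 43.7 in Acot2 mKO and 202 ± 9.47 in control muscle, and then Flt1 with 102 ± 13.04 in Acot2 mKO and 113 ± 7.37 in control muscle. Lyve1 was the highest lymphatic gene per kilobase, at 62.9 ± 10.0 in Acot2 mKO and 43.9 ± 11.1 in control muscle. Below it in control muscle, Vegfc (18.8 ± 6.10), Flt4 (18.0 ± 2.06) and Mmrn1 (17.6 ± 2.80) did not differ beyond their spread, and Reln stood at 13.8 ± 2.58, Prox1 at 9.46 ± 1.32 and Sema3d at 6.22 ± 1.15. In Acot2 mKO muscle the same genes ran Mmrn1 (33.3 ± 6.59), Flt4 (26.8 ± 2.43), Reln (23.1 ± 6.71), Vegfc (20.7 ± 4.29), Prox1 (12.2 ± 4.21) and Sema3d (9.12 ± 1.19), and of these neighbours only Vegfc and Prox1 were apart by more than their spreads. The lymphatic receptor was thus far below the blood-vessel receptors per kilobase in both groups.

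Within each library, Flt4 reads as a percent of Kdr reads were 19.5, 13.25, 12.2 and 9.20 in Acot2 mKO replicates 1 to 4, against 8.55, 7.22, 8.12 and 8.65 in the control replicates. The groups did not overlap, and replicate 4 of the Acot2 mKO muscle was close to the controls. The means were 13.5 ± 4.34% in Acot2 mKO and 8.13 ± 0.651% in control muscle (SD, n = 4 each), a log2 difference of 0.68 that ranged from 0.49 to 0.98 over the other settings tried. Set against Pecam1, an adhesion molecule of all endothelium, Flt4 was 15.9 ± 3.45% in Acot2 mKO and 10.0 ± 0.928% in control muscle (SD, n = 4 each), again without overlap. Mmrn1 was 12.05 ± 4.68% of Kdr in Acot2 mKO and 5.71 ± 1.085% in control muscle (SD, n = 4 each), without overlap. Flt1 was 81.7 ± 9.07% of Kdr in Acot2 mKO and 84.2 ± 6.525% in control muscle (SD, n = 4 each), with overlap. The ratios of Mmrn1 to Flt4 and of Prox1 to Flt4 also overlapped between the groups. Where the groups of a ratio did not overlap, this restates how the genes were picked: lymphatic genes higher and blood-vessel receptors not.

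**Figure D4:**
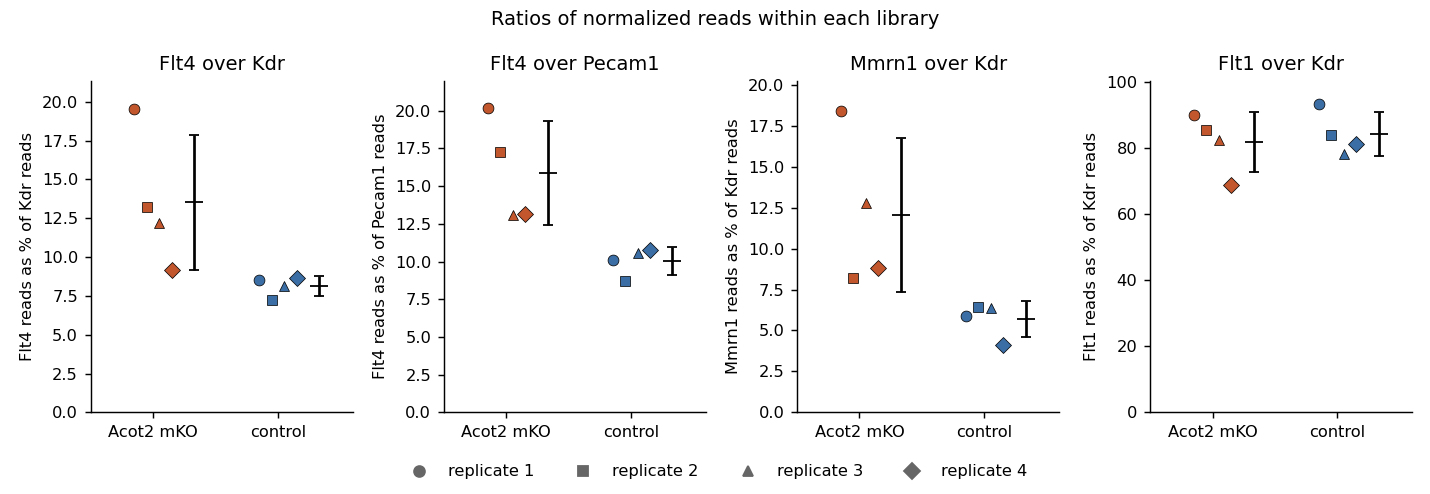
Reads of one gene as a percent of another's (vertical axes, linear from 0) in 4 Acot2 mKO libraries (left, orange) and 4 control libraries (right, blue); symbols mark replicates and bars are mean ± SD. Flt4 over Kdr, Flt4 over Pecam1 and Mmrn1 over Kdr show no overlap between groups, with the highest Flt4 to Kdr ratio, 19.5%, in Acot2 mKO replicate 1, and Flt1 over Kdr overlaps.

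Whether the genes varied together from mouse to mouse was asked with the group means subtracted, which is not the contrast they were picked from. Over 8 libraries, each of 45 pairs had an exact two-sided permutation test of 576 relabellings within groups. No pair had an adjusted p under 0.05 (lowest 0.5 for Pearson's r and 0.951 for Spearman's rho). For r, 2 pairs had an unadjusted p under 0.05. The smallest p this test can give is 0.00174, so a pair standing alone could not pass the adjustment over 45 pairs. Among the 15 pairs of lymphatic genes, 8 had r above 0, the median r was 0.015 and the range was -0.801 to 0.744. The highest, of Mmrn1 and Sema3d, turned to -0.460 without Acot2 mKO replicate 2 and control replicate 4. Flt4 and Mmrn1 had r = -0.392 and rho = -0.238 (exact permutation p = 0.354 and 0.594, adjusted 0.986 and 1). Their r turned to 0.369 without Acot2 mKO replicate 2 and control replicate 4. Vegfa and Flt1 had r = 0.808 and rho = 0.690 (exact permutation p = 0.0365 and 0.099, adjusted 0.5 and 0.951), and r was 0.599 without the 2 libraries farthest from the median of Vegfa. Kdr and Flt1 had r = 0.840 and rho = 0.643 (exact permutation p = 0.0538 and 0.12, adjusted 0.5 and 0.951), but r was 0.215 without Acot2 mKO replicates 1 and 4, so the relation rests on those libraries. Flt4 and Sema3d ran the other way, with r = -0.801 and rho = -0.786 (exact permutation p = 0.0486 for each, adjusted 0.5 and 0.951), and r was -0.544 without control replicates 2 and 4. The lymphatic genes thus had no detectable common order among mice of a group at this sample size. Their shared direction between the groups is how they were picked. Flt4 and Sema3d had SDs near those from counting alone in both groups, which limits what their pairs can show. The SDs of Reln and Lyve1 were wider than those from counting in both groups, and those of Mmrn1 and Prox1 chiefly in Acot2 mKO muscle.

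**Figure D5:**
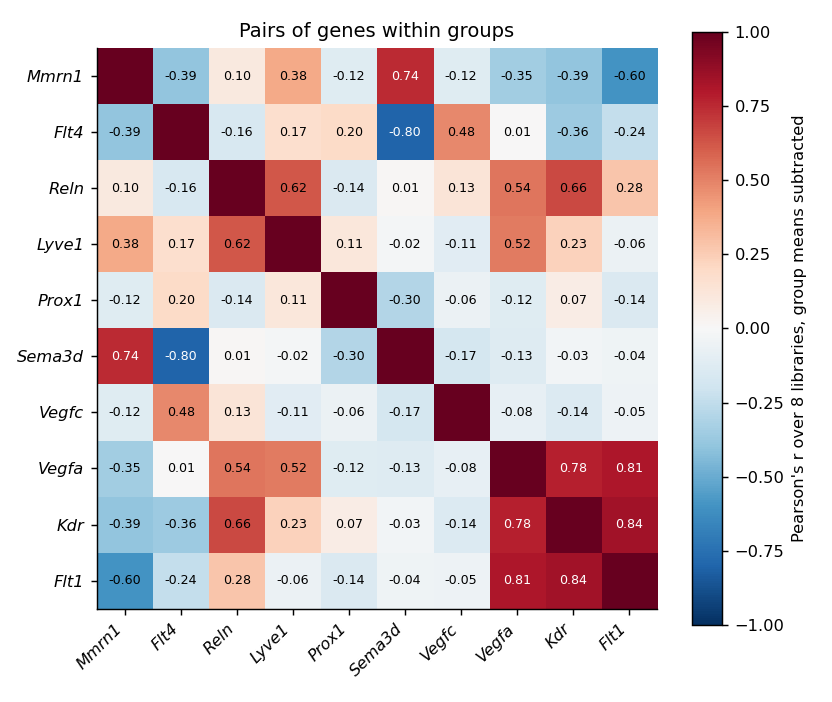
Pearson's r between the 10 genes (rows and columns) over 8 libraries after each group's mean was subtracted; red is positive, blue negative, and the diagonal is each gene with itself. The pairs of Vegfa, Kdr and Flt1 are red (0.78 to 0.84), and those of the 6 lymphatic genes range from -0.80 to 0.74. No pair had an adjusted p under 0.05 in the exact permutation test. Kdr and Flt1 fell to 0.215 without Acot2 mKO replicates 1 and 4. Mmrn1 and Sema3d, at 0.74, turned to -0.460 without Acot2 mKO replicate 2 and control replicate 4. Flt4 and Sema3d had SDs near those from read counting alone, which limits their pairs.

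Of the genes with at least 100 normalized reads on average, 9670 were ranked by how closely they followed Flt4 and Kdr over the 8 libraries with group means subtracted. Nearest to Flt4 were Tsc22d3 (r = 0.989), Rdx, Nop9, Qdpr, Ppil3 and Tgif1 (r = 0.921), whose own log2 differences between the groups were between -0.10 and 0.07. Nearest to Kdr were Dusp6 (r = 0.967), an ERK phosphatase, the adenylyl cyclase Adcy4, Med20, Pde4a, Cerk and Wrnip1 (r = 0.947). The 10 genes themselves were not ranked, and with 8 libraries the best of 9670 genes has a high r by selection. The SDs of Flt4 were near those from counting alone, so the ranking by Flt4 rests in part on counting error.

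Other genes of the lymphatic endothelium lay nearer to 0 on the median. The lymphatic genes described above were picked for being higher, so this is no comparison between the lists. Of 16 further lymphatic genes, 13 were tested, none passed the adjusted threshold, 8 lay above 0 and 5 below, and the median log2 difference was 0.13. That median was not stable: it was 0.016 without control replicate 1, -0.032 without Acot2 mKO replicates 3 and 4, and -0.0087 over those of the genes with a mean of at least 100 normalized reads. It was 0.064 without Acot2 mKO replicate 3, 0.055 without Acot2 mKO replicate 4 and 0.051 without control replicate 4. Stab2, a scavenger receptor of lymphatic and sinusoidal endothelium, had a log2 difference of 0.20 (SE 0.22), and Pdpn, the podoplanin that also marks fibroblasts, 0.36 (SE 0.27). Nr2f2, the venous and lymphatic factor COUP-TFII, had -0.07 (SE 0.11), Nfatc1, a factor of lymphatic valves, -0.09 (SE 0.08), and Fxyd6 0.25 (SE 0.49). In control muscle Nfatc1 had 1169 ± 118 and Nr2f2 665 ± 95.5 normalized reads (SD, n = 4 each). Flt4 had 148 ± 16.9 and Prox1 79.4 ± 11.1 there. Fxyd6 and the fast-fibre gene Myh2 were both highest in replicates 3 and 4 of each group. Which cells carry Nfatc1, Nr2f2 and Fxyd6 in this muscle was not tested. Dtx1, a regulator of Notch signalling, was the single one at an unadjusted p under 0.05, with a log2 difference of 1.16 (SE 0.52), overlapping groups and at most 28.6 normalized reads. Sox18, a factor that switches on Prox1, lay at 106 to 159 normalized reads in Acot2 mKO and 123 to 190 in control muscle. Ccl21a, a lymphatic chemokine gene with near-identical copies, was listed at 0 in all 8 libraries, and Foxc2 and Nts were too low to test.

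The other VEGF ligands, their co-receptors and the genes that process VEGF-C gave 4 above 0 and 3 below of 7 tested, with a median of 0.03 and none past the threshold. Figf, which encodes VEGF-D, the second ligand of Flt4, had 40.4, 51.35, 59.4 and 34.7 normalized reads in replicates 1 to 4 of the Acot2 mKO group, against 60.3, 103, 43.0 and 69.3 in the control replicates, with overlap. Adamts3, the protease that activates VEGF-C, had 157, 114, 52.5 and 136 normalized reads in replicates 1 to 4 of the Acot2 mKO group, against 67.4, 88.4, 60.2 and 87.7 in the control replicates, with overlap. Like Prox1, Adamts3 was lowest in Acot2 mKO replicate 3. The neuropilins, co-receptors for VEGFs and semaphorins, had log2 differences of 0.03 for Nrp1 (SE 0.12) and -0.10 for Nrp2 (SE 0.13), and Vegfb had -0.04 (SE 0.14). Of 5 tested angiopoietin and Tie genes, Angpt1, the ligand of the receptor Tek, had 0.30 (SE 0.13), Tek -0.05 (SE 0.11) and Tie1 0.03 (SE 0.11).

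Downstream of the receptors, 27 signalling genes gave 17 above 0 and 10 below with a median of 0.03, and 9 endothelial tip cell genes gave 1 above and 8 below with a median of -0.11. The receptors for class 3 semaphorins and reelin gave 2 above 0 and 4 below, and Vldlr, a reelin receptor, had -0.0008 (SE 0.09). None of these passed the threshold in limma or limma-voom. General endothelial genes had differences near 0: of 22, 9 lay above and 13 below, the median was -0.05, and their summed level was 12734 to 15923 normalized reads in Acot2 mKO and 13426 to 15498 in control libraries. Cdh5, the endothelial cadherin, had -0.11 (SE 0.12) and Pecam1 -0.07 (SE 0.09). Capillary, arterial and venous lists had medians of -0.02, -0.07 and -0.02. The summed level of the 6 lymphatic genes was 1092 to 1564 normalized reads in Acot2 mKO and 758 to 944 in control libraries. The lack of overlap restates how these genes were picked, so it is no comparison with the other lists.

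Markers of other tissues moved with the groups in some libraries. All 8 tendon genes lay above 0 with a median of 0.55, and their summed level was 8701 to 15560 normalized reads in Acot2 mKO and 6249 to 10347 in control libraries, none of them at 0. The part of tendon tissue in the lymphatic differences was not tested. Slow-fibre genes lay above 0 in 9 of 10, with summed levels of 2454, 3334, 8876 and 20851 normalized reads in replicates 1 to 4 of the Acot2 mKO group and 2517 to 3750 in controls, and Tnni1 was at 0 in Acot2 mKO replicate 1. With replicates 3 and 4 of the Acot2 mKO group left out, the log2 difference was 0.82 for Mmrn1, 0.68 for Flt4, 0.55 for Prox1, 0.41 for Sema3d, 0.39 for Lyve1 and 0.37 for Reln. All 11 tested adipocyte genes lay below 0, with summed levels of 1094 to 1779 normalized reads in Acot2 mKO and 2589, 17521, 7473 and 1255 in control replicates 1 to 4. Without control replicates 2 and 3 the log2 difference was 1.07 for Mmrn1, 0.70 for Reln, 0.66 for Sema3d, 0.54 for Lyve1, 0.46 for Flt4 and 0.44 for Prox1.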

How the data were processed

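RNA from white quadriceps of 8 mice, 4 Acot2 mKO and 4 control, was made into stranded libraries, per the labels' protocols. The submitters' processing notes name FastQC, cutadapt, STAR, HTSeq, DESeq2 and GRCm38 but no roles or versions. The annotation, and whether strand was used in counting, are not given in the sources used here. Values in the table the authors deposited are log2 of x + 1, where x is the read count over a factor set for each library, as the values themselves show: with the log undone, 100% of those below 1000 reads lay within 0.1 of a whole multiple of the worth of 1 read. Whole reads were recovered from these steps. Levels in the text are x, called normalized reads, and the counting SD is the Poisson error of the recovered reads, which covers counting error only. The pseudocount of 1 understates changes of low genes.

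The comparison used limma 3.58.1 (R 4.3.3) on the log2 values, with a trend and two-sided Benjamini-Hochberg adjustment at 0.05, over the 13638 genes that reached 10 normalized reads in 4 or more of the 8 libraries. Each library is 1 animal, by the animal number in its title, and replicate numbers follow deposition order and pair nothing. The test was also run with limma-voom on the recovered reads, where 2 genes passed. The other settings tried were 2 pseudocounts, 2 filters, 2 scalings, library weights, a block for adjacent animal numbers and libraries left out. Exons and neighbours came from GENCODE M21 and promoters from RefSeq, both on GRCm38, by symbol. Per-kilobase levels use the union of a gene's exons. Motifs were searched on both strands. Spreadsheet dates standing in for 27 gene names were restored through the NCBI gene number. The 10 genes and the gene lists were chosen with earlier results of these data known. Named genes are the 10, Acot2, up to 4 of the highest in a list, those past the test and those most like Flt4 and Kdr. Cell type markers were named too, among them Cd163, Folr2, Adgre1, Pdpn, Ccl21a and Tnni1. Sox18, Foxc2, Nts, Figf, Adamts3, Dtx1, Gpr4 and Myh2 were added after their values were seen.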

Additional observations from a re-analysis of the deposited data

Results flagged for a closer look

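Prox1 in Acot2 mKO replicate 3 was far from its group: it had 50.24 normalized reads, from 44 recovered reads, against 114, 119 and 127.5 in Acot2 mKO replicates 2, 1 and 4. On the log2 scale the gap to the nearest library was 0.876 of the group's whole range, above Dixon's 95% critical value for 4 samples. On the linear scale of the reads it was 0.821, just below that value. With 22 groups examined in this way, about 1 in 20 would be flagged by chance. In the same library Flt4 had 204, Mmrn1 215 and Reln 625 normalized reads, within the range of the other Acot2 mKO libraries.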

How the results depend on the processing

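The 6 lymphatic genes kept a log2 difference above 0 under every setting in which they were measured. Prox1 and Sema3d, like Vegfc, gave no value when a mean of at least 100 normalized reads was asked. For Mmrn1, Flt4, Reln and Sema3d, whose groups did not overlap, leaving libraries out could not turn the sign. All 6 were picked for being higher, so the kept sign is support for nothing. Their ranges were 0.79 to 1.07 for Mmrn1, 0.46 to 0.68 for Flt4, 0.37 to 0.86 for Reln, 0.39 to 0.68 for Lyve1, 0.16 to 0.60 for Prox1 and 0.41 to 0.66 for Sema3d. Under each of the 19 other settings 2 genes passed over all genes, and they were the same 2. Without both adipocyte-rich controls the medians moved to -0.053 for the VEGF ligands and -0.22 for adipocyte genes. Without both slow-fibre-rich Acot2 mKO libraries they moved to -0.032 for other lymphatic genes, -0.16 for other VEGF genes and -0.19 for angiopoietin and Tie genes. They moved to -0.21 for capillary genes and -0.17 for slow-fibre genes. These 2 libraries were also the Acot2 mKO libraries highest in Myh2, whereas the controls highest in Myh2 stayed in. The cause was not tested beyond the libraries left out. The labels give the groups no shared replicate number, but the animal numbers form 4 adjacent pairs across the groups; with these as a block, 2 genes passed the threshold and 513 had an unadjusted p under 0.05, against 397 without it.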

Other observations

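Other vascular lists not described above gave few differences. Of 10 tested mural cell genes, 3 lay above 0 and 7 below, with a median of -0.10 and none past the threshold. Of 15 hypoxia and PGC-1alpha genes, 10 lay above 0 and 5 below, with a median of 0.06, and Egln1, an oxygen-sensing hydroxylase, had 0.06 (SE 0.07). Gpr4, a proton-sensing receptor of endothelium, had 24.4, 30.6, 23.98 and 30.5 normalized reads in replicates 1 to 4 of the Acot2 mKO group, against 18.1, 17.9, 21.01 and 21.6 in the control replicates, and was named, after its values were seen, for having no overlap. Jag1, a Notch ligand of arterial endothelium, had 410, 394, 427 and 435 normalized reads in replicates 1 to 4 of the Acot2 mKO group, against 572, 554, 465 and 487 in the control replicates, likewise with no overlap, at a log2 difference of -0.31 (SE 0.09). Neither passed the adjusted threshold.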
